A study of Mus musculus with 12 samples.

Results

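Cluster 3 is 1 of the 4 groups into which the authors sorted genes whose promoters carried more of the histone mark H3K4me3 in the hippocampus of Del/+ or Kansl1+/- mice than in wt mice. It is described here by its 125 Gene Ontology (GO) terms, which are all the terms that the deposited enrichment table of this cluster lists, out of 1076 term entries in 8 such tables. The cluster holds 212 genes of a background of 23468, as worked out from the expected numbers in the tables. Within it, genes of axons, dendrites and synapses stood beside small sets for neurofilament, GABA signaling and synapse assembly. Of the 125 terms, 32 (25.6%) were listed for cluster 3 alone among the 4 clusters. The number listed alone was a larger part of the other lists, at 124 of 190 terms in cluster 1, 52 of 104 in cluster 2 and 40 of 89 in cluster 4.

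Chromatin came from the whole hippocampus of 12 mice on the C57BL/6N background at postnatal day 30. The 3 Del/+ mice were heterozygous for a deletion of the Arf2-Kansl1 region, made with loxP sites and Cre recombinase, and the 3 Kansl1+/- mice were heterozygous for a Kansl1 allele with an exon removed by Cre, from 1 embryonic stem cell clone. The 6 wt mice were littermate controls, 3 for each mutant line. The authors set both mutants against the same 6 wt libraries and described cluster 1 as raised in Kansl1+/- only, cluster 2 as raised in both mutants, cluster 3 as raised more in Del/+, and cluster 4 as raised in Del/+ only. The 4 lists therefore share their control libraries. No value per mouse was analysed here, the depth of each library is unknown, and the counts carry no spread between mice.

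H3K4me3 is the trimethylation of lysine on the tail of histone H3 that marks the promoters of active genes. GO assigns genes to processes, cell parts and molecular functions in a nested vocabulary, in which a gene of a narrow term such as axon also belongs to the wider terms above it, such as neuron projection. Terms of the same list therefore share genes and are not independent. The hippocampus is the brain region best known for learning and memory, and its excitatory pyramidal neurons, GABA-releasing interneurons and glia were measured together, so that more cells of a type and more mark per cell cannot be told apart. The GO tables name terms and no genes, so the labelled tissue was looked at here through the terms. The study's supplementary gene lists gave no values here.

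Each term is given with its gene count in cluster 3, the share of the 212 genes that this makes, and the ratio of the count to the number expected from the share of the background. Intervals are exact 95% Clopper-Pearson intervals of the share, divided by the background share where they belong to a ratio, and cover counting error only. The terms were chosen by the authors' enrichment in these same genes, and the genes were chosen by their H3K4me3 signal in the same libraries, so all values are a description without a test. The expected numbers are based on every annotated gene, whether or not its promoter is marked in hippocampus, and what part of these ratios comes with promoters active in brain was not tested.

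The ratios ran from 1.22 for cell to 111 for neurofilament bundle assembly, with a median of 3.42. Sorted by what the terms describe, 11 were neuronal projections and compartments, 10 synapse and transmission, 12 ion channels and transport, 16 neurogenesis and brain development, and 24 outgrowth, guidance and cell shape. A further 2 terms were neurofilament, 5 behavior, stress and growth, 18 general development, and 27 broad terms such as signaling and protein binding. The median ratio was highest for the neurofilament terms (77.5), followed by synapse (4.90), projection (4.44), channel and transport (4.39) and behavior, stress and growth (4.39). It was 3.89 for neurogenesis, 3.68 for outgrowth, 2.33 for general development and 1.66 for the broad terms. The fewer background genes a term has, the higher the ratio it needs to be listed. The order of the groups therefore depends on term size and does not rank them by strength.

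**Figure D1:**
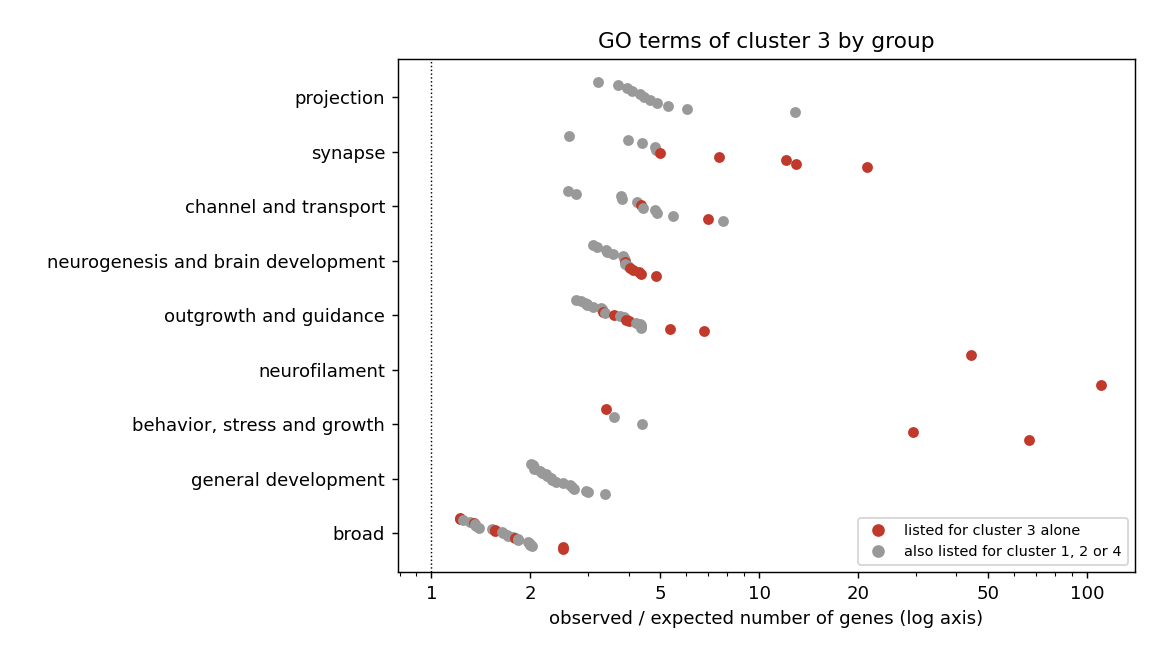
Ratio of observed to expected gene number (log axis) for the 125 GO terms of cluster 3, by group of terms, with 1 point per term in red where the term was listed for cluster 3 alone among the 4 clusters and in gray otherwise. The broad terms lie nearest to a ratio of 1, and the neurofilament terms, at 44.3 and 111, lie far to the right.

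Terms with a name from nervous tissue made up a larger part of this list than of the others. The names counted held the stem neuro or a form of the words neuron, nerve, axon, dendrite, synapse or brain. They were 39 of the 125 terms of cluster 3 (31.2%) and 20 of 89 in cluster 4 (22.5%). They were 20 of 104 in cluster 2 (19.2%) and 16 of 190 in cluster 1 (8.42%). Words for glia, myelin, ependyma, choroid plexus, vessels and immune cells were in 0 of the 125 names of cluster 3 and 0 of the 89 of cluster 4. The same words were in 9 names of cluster 1, such as blood vessel morphogenesis, and in 4 of cluster 2, such as mucosal immune response. A term that is not listed may still hold genes, so these counts describe the tables and not the absence of such genes.

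The projection terms describe the axons and dendrites by which neurons send and receive signals. None of the 11 was listed for cluster 3 alone, and 10 were also listed for cluster 4, 6 for cluster 2 and 0 for cluster 1. Axon, the output process of a neuron, held 26 genes of cluster 3, 12.3% of the list (8.17% to 17.5%), at a ratio of 6.02. In cluster 4 it held 18 genes (11.1%, 6.72% to 17.0%), a share within the interval of cluster 3. Axon was not listed for cluster 1 or cluster 2.

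For such an unlisted term an upper limit can be set on its count. The authors used a hypergeometric test, so a term could be listed from fewer genes the smaller it is, and an unlisted term must hold fewer genes than any listed term of the same table with at least as many background genes. By this limit axon held at most 13 genes of cluster 1 (8.12%) and at most 17 of cluster 2 (7.94%), both under the lower bound of the share in cluster 3. With 1 gene fewer in cluster 3 that bound is 7.78%, and neither limit is under it. The limits rest on the assumption that listing depended on count and term size alone. They allow a gene to be in more than 1 cluster, as a gene with several promoters can be.

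Main axon, the trunk of the axon without its side branches and endings, had the highest ratio of the projection terms (12.8, interval 5.59 to 24.8) with 8 of its 69 background genes. Axon part, with 12 genes, followed after axon at 5.27. Dendrite, the receiving process, held 23 genes of cluster 3 (10.8%, 7.0% to 15.8%), and 18 of cluster 4 (11.1%). Neuronal cell body held the same number, 23, at a ratio of 4.44.

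Neuron projection, which takes in axons and dendrites, held 46 genes of cluster 3 (21.7%, 16.3% to 27.9%). It held 33 genes of cluster 2 (15.4%, 10.9% to 21.0%) and 28 of cluster 4 (17.3%, 11.8% to 24.0%), and at most 23 of cluster 1 (14.4%) where it was not listed. Cluster 3 had the highest share, the intervals overlapped those of clusters 2 and 4, and the limit in cluster 1 lay under the interval of cluster 3. The same order held for neuron part, with 51 genes in cluster 3 (24.1%) against 37 in cluster 2, 33 in cluster 4 and at most 24 (15.0%) in cluster 1. By these limits, the shares of axon, neuron projection and neuron part in cluster 1, and of axon in cluster 2, lay under the interval of cluster 3. For axon this rests on 1 gene. A limit is a point without an interval, and the listed share of neuron projection in cluster 2 (15.4%) also lay under that of cluster 3. A count of 23 genes in cluster 1 has an interval of 9.34% to 20.8%, which overlaps that of cluster 3, so the limits do not set the clusters apart.

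The nesting of these terms sets how far the same genes can account for them. Of the 46 neuron projection genes, the 26 axon genes were 56.5% and the 23 dendrite genes 50%, so at least 3 genes belonged to both. In cluster 4, axon and dendrite held 18 genes each of 28, so at least 8 belonged to both, and in the list of all genes raised in Del/+ at least 6 of 95 did. Of the 51 neuron part genes of cluster 3, 46 (90.2%) were neuron projection genes and 23 were neuronal cell body genes, so at least 18 were counted under both headings.

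**Figure D2:**
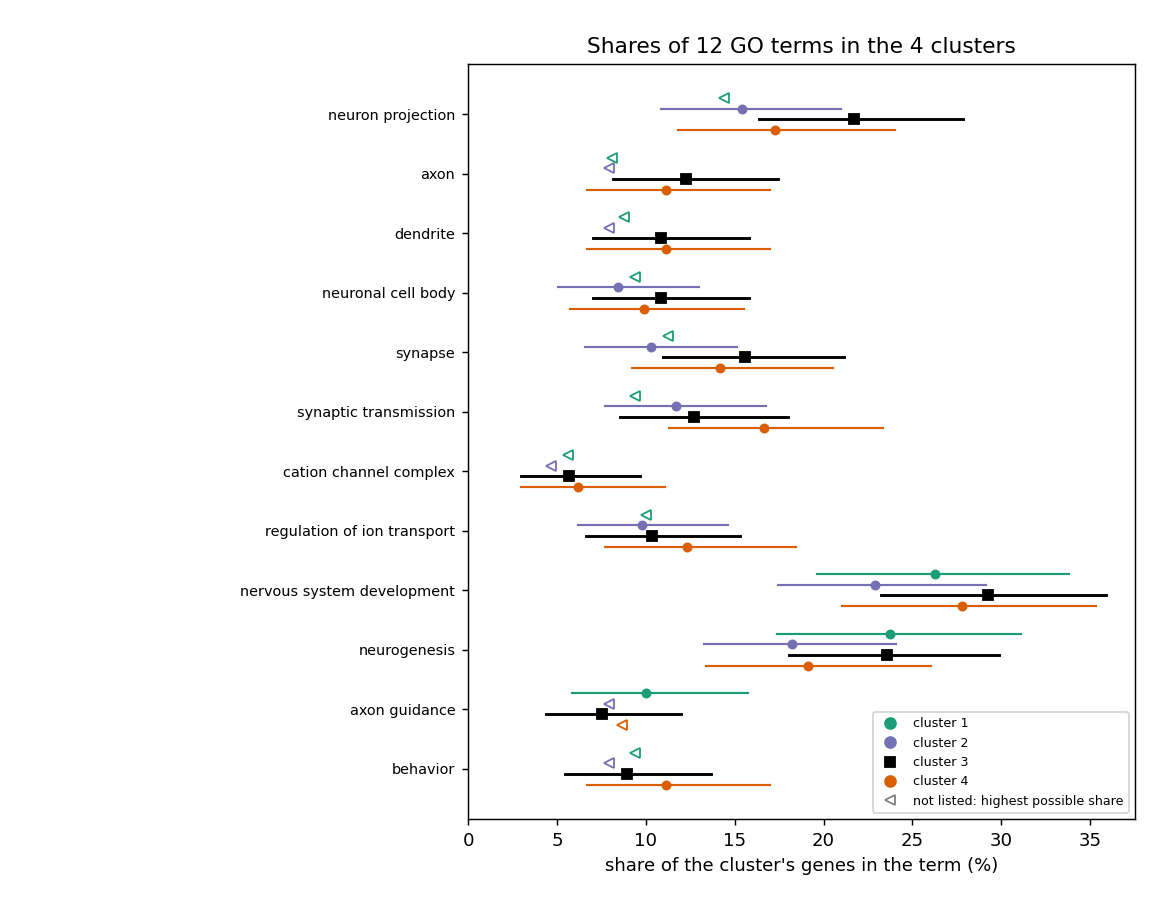
Share of each cluster's genes (percent) in 12 GO terms, with exact 95% intervals as lines, for cluster 3 (black squares) and clusters 1, 2 and 4 (colored circles), and open triangles for the highest possible share where a term was not listed. Cluster 3 has the highest share of neuron projection (21.7%) and axon (12.3%), and cluster 4 the highest of synaptic transmission (16.7%).

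The 2 neurofilament terms are small and had the highest median ratio of the groups. Neurofilaments are intermediate filaments of neurons that fill large axons and set their caliber. Neurofilament bundle assembly, the bundling of these filaments, has 3 background genes, and all 3 were in cluster 3, at a ratio of 111 with a counting interval of 22.9 to 319. Neurofilament, the filament itself, held 4 of 10 background genes, at a ratio of 44.3 (12.1 to 112). Neither term was listed for another cluster or for the genes raised in Kansl1+/-, and neurofilament was listed with 5 genes for those raised in Del/+.

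These counts are among the smallest of the cluster, where the counts of the terms ran from 3 to 165 genes. With 3 and 4 genes, each term took 1.42% and 1.89% of cluster 3, and by the limits above up to 2 and 3 genes were possible in cluster 1, 3 and 3 in cluster 2 and 3 and 5 in cluster 4. If no gene of this term were in more than 1 cluster, 0 genes of neurofilament bundle assembly would be left for the others. The neurofilament triplet is made of light, medium and heavy subunits, encoded in mouse by Nefl, Nefm and Nefh, and the GO tables do not name the genes counted. In the GRCm38 annotation (GENCODE M21), Nefl lies at chr14:68083863-68089095 on the plus strand, Nefm at chr14:68082590-68124846 on the minus strand and Nefh at chr11:4938754-4948064 on the minus strand. The annotated spans of Nefl and Nefm overlap on opposite strands.

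Of the 10 synapse terms, 5 were listed for cluster 3 alone. Gamma-aminobutyric acid signaling pathway, the signaling set off by the main inhibitory transmitter of the brain, held 5 of its 26 background genes, at a ratio of 21.3 (6.95 to 48.9). Transmission of nerve impulse held 7 of 60 genes at 12.9, and synapse assembly, the building of new synapses, 7 of 64 at 12.1. Synapse organization held 10 genes at a ratio of 7.53, and postsynapse, the receiving side of the synapse, 15 at 4.97. For transmission of nerve impulse and synapse assembly the limits were 5 genes in cluster 1, 6 in cluster 2 and 5 in cluster 4. Each is a smaller share than the 3.30% in cluster 3, by less than 1 gene in clusters 1 and 4. All lie within the interval of cluster 3 (1.34% to 6.68%).

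The wider synapse terms were shared. Synapse held 33 genes of cluster 3 (15.6%, 11% to 21.2%), 22 of cluster 2 (10.3%) and 23 of cluster 4 (14.2%), and could hold at most 18 of cluster 1 (11.2%). Synaptic transmission, the passage of a signal across the synapse, had its highest share in cluster 4, at 16.7% (11.3% to 23.3%) against 12.7% in cluster 3. Cell-cell signaling was likewise 19.1% in cluster 4, 16.8% in cluster 2 and 16.5% in cluster 3. Over the 5 synapse terms listed for both clusters 3 and 4, the share was higher in cluster 4 for 4, with a median difference of -2.63 percentage points (cluster 3 minus cluster 4). The intervals of these terms overlapped between the clusters.

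Ion channels let ions cross the membrane and carry the electrical signals of neurons. Cation channel complex, whose members pass sodium, potassium or calcium ions, held 12 of 171 genes in cluster 3 at a ratio of 7.77 (4.06 to 13.3) and 10 genes in cluster 4. Channel regulator activity, the function of proteins that open or close channels, held 9 genes at 6.97 and was listed for cluster 3 alone, as was regulation of metal ion transport with 14 genes at 4.35. Ion channel complex held 14 genes both in cluster 3 (6.60%) and in cluster 4 (8.64%). Of the 12 channel and transport terms, 10 were listed for cluster 4, 2 for cluster 2 and 0 for cluster 1. Cluster 4 had the higher share in 8 of the 10, and cluster 3 in regulation of transport (21.7% against 19.1%) and regulation of localization (26.9% against 23.5%).

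Of the 16 neurogenesis terms, 10 were also listed for cluster 1, 9 for cluster 2 and 6 for cluster 4, and 6 were listed for cluster 3 alone. Positive regulation of neuron differentiation (15 genes, ratio 4.84), of neurogenesis (17, 4.37), of cell development (21, 4.30) and of nervous system development (18, 4.05) were listed for cluster 3 alone. So were brain development (22 genes, 10.4%, 6.62% to 15.3%, ratio 4.13) and head development, which contains it, also with 22 genes. Because both held 22 genes, the wider term added no gene in this cluster. In cluster 1 brain development could hold at most 15 genes (9.38%), in cluster 2 at most 19 (8.88%) and in cluster 4 at most 18 (11.1%), all within the interval of cluster 3.

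The regulation terms without a direction were listed more widely. Regulation of neurogenesis held 25 genes of cluster 3 (11.8%), 19 of cluster 1 (11.9%) and 22 of cluster 2 (10.3%). Regulation of nervous system development held 28 genes (13.2%), the highest of the 4 shares, which ran down to 10.7% in cluster 2. Generation of neurons (50 genes, 23.6%) and neurogenesis, the term above it, had equal counts in cluster 3, while in cluster 1 neurogenesis held 1 gene more (38 against 37). Nervous system development took 29.2% of cluster 3 (23.2% to 35.9%), 27.8% of cluster 4, 26.2% of cluster 1 and 22.9% of cluster 2, and no pair of intervals with cluster 3 was apart.

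Outgrowth and guidance terms were shared mostly with cluster 1. These describe how axons and dendrites grow and find their targets, and how cells take shape and move. Of the 24 terms, 18 were listed for cluster 1, and in all 18 the share was lower in cluster 3, with differences from -5.55 to -0.83 percentage points and a median of -2.52. Only terms that passed the listing in cluster 1 are compared here, and a shorter list generally needs a higher share to list a term. What part of the differences comes from this was not tested. Neuron projection morphogenesis held 23 genes of cluster 3 (10.8%, ratio 4.36) and 20 of cluster 1 (12.5%). Axon guidance held 16 genes in each, 7.55% of cluster 3 (4.38% to 12.0%) and 10% of cluster 1. Neuron projection guidance had the same counts as axon guidance in every list and the same 407 background genes. Cell morphogenesis held 28 genes in each, 13.2% of cluster 3 and 17.5% of cluster 1, and the equal gene numbers became different shares because cluster 1 has 160 genes.

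Of the 7 terms in this group that name regulation, 6 were listed for cluster 3 alone, and regulation of anatomical structure morphogenesis was also listed for cluster 1 (16.9% against 11.3% in cluster 3). Regulation of axonogenesis held 9 of 147 genes, at a ratio of 6.78 (3.13 to 12.6), and was not listed for either list of all raised genes. Regulation of cell morphogenesis involved in differentiation held 16 genes at 5.35, regulation of neuron projection development 15 at 4.0 and regulation of cell morphogenesis 19 at 3.93. Regulation of cell projection organization, with 18 genes, and regulation of cellular component movement, with 23, had ratios of 3.60 and 3.34. Axonogenesis itself held 18 genes both in cluster 3 and in cluster 1.

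A group of 5 terms named behavior, stress or growth. Single-organism behavior took 8.02% of cluster 3 (17 genes) and 9.26% of cluster 4 (15 genes), and the wider term behavior 8.96% and 11.1%. Response to immobilization stress, a standard restraint stress of rodents, held 3 of only 5 background genes (ratio 66.4, 13.7 to 191). Insulin-like growth factor receptor signaling pathway, a growth and survival signal, held 4 of 15 (29.5, 8.08 to 74.5). Regulation of growth held 21 of 680 genes at 3.42. The last 3 terms were listed for cluster 3 alone and for neither list of all raised genes.

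In 8 terms cluster 3 held at least 10% of all background genes of the term, and 7 of them were listed for this cluster alone. These 7 were the neurofilament terms (100% and 40.0%), response to immobilization stress (60.0%), the insulin-like growth factor term (26.7%), the GABA term (19.2%), transmission of nerve impulse (11.7%) and synapse assembly (10.9%). The other was main axon (11.6%). A term with few background genes can be listed only when a large part of them is in the list. By the limits above, cluster 4 could hold 5 of the 5 background genes for immobilization stress and 5 of the 26 for GABA without being listed. For transmission of nerve impulse and synapse assembly the limits were under the counts of cluster 3.

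The developmental and broad terms were mostly large sets, and these groups had the lowest median ratios. Among the 18 general development terms, 0 were listed for cluster 3 alone and 17 were also listed for cluster 1, which had the higher share in 14. The widest gap was organ development, with 53 genes of cluster 3 (25.0%, 19.3% to 31.4%) against 36.2% of cluster 1. Anatomical structure morphogenesis was 23.1% against 32.5%. Against cluster 2, the share was higher in cluster 3 for all 14 shared terms, with a median difference of 3.02 percentage points, and against cluster 4 for all 5.

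Among the 27 broad terms, 8 were listed for cluster 3 alone. Localization held 76 genes (35.8%) against 19.9% of the background. Signaling and single organism signaling held 84 genes each, protein binding 130, and cell and cell part 165 each. Negative regulation of signaling and negative regulation of cell communication held 27 each, at ratios of 2.53 and 2.52. Within each of these pairs the background sets are of nearly the same size, such as 5940 and 5943 genes for the signaling terms. Regulation of biological quality held 59 genes (27.8%) at a ratio of 2.03, and was also listed for cluster 4 (29.0%).

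**Figure D3:**
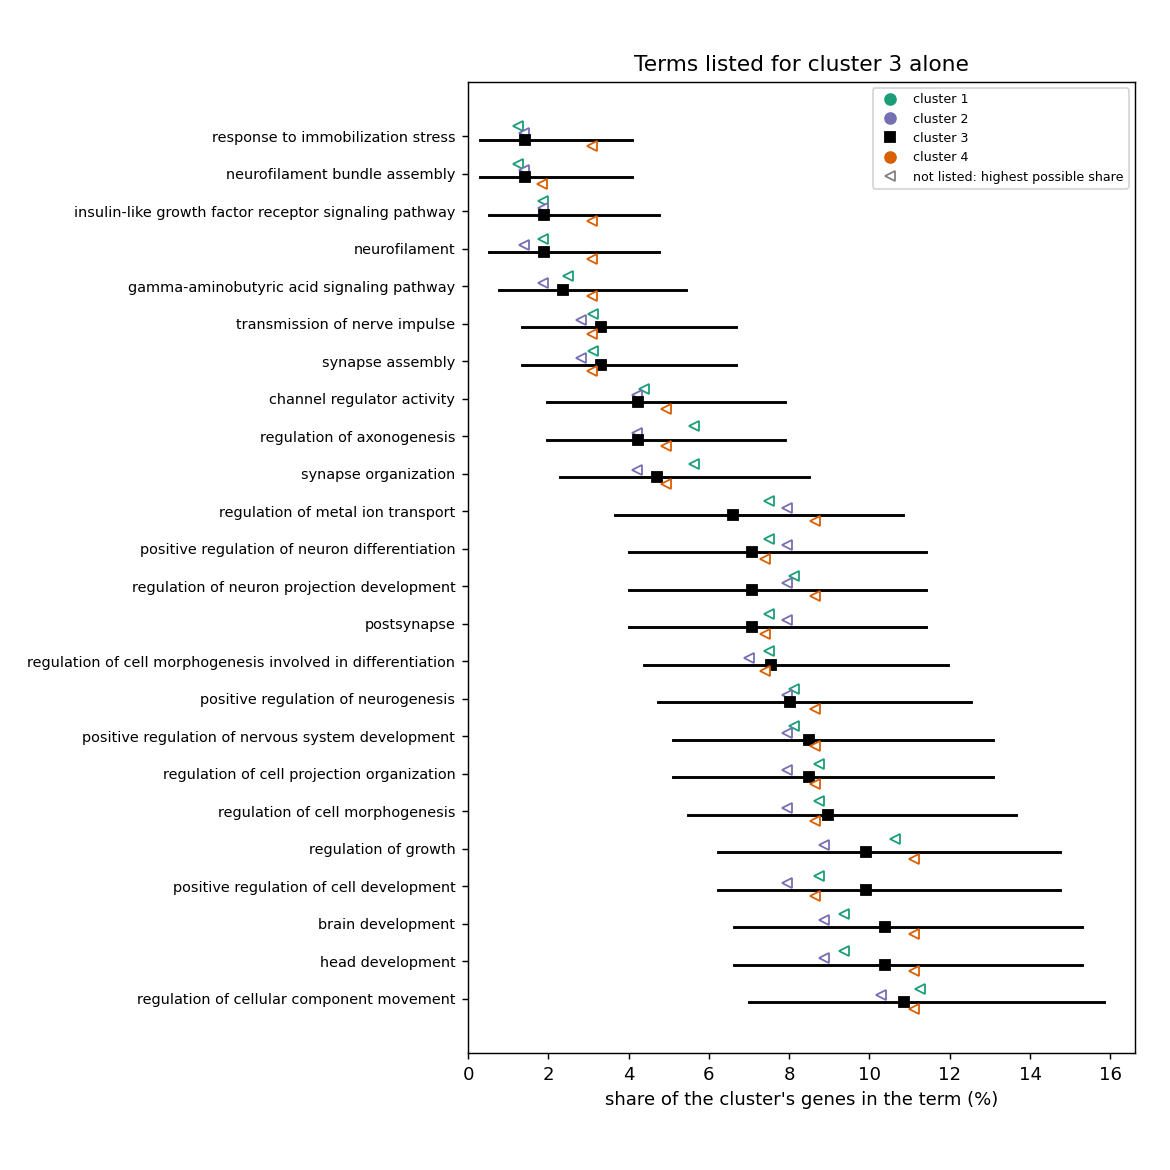
Share of each cluster's genes (percent) in the terms listed for cluster 3 alone that have at most 1000 background genes, with exact 95% intervals for cluster 3 (black) and open triangles for the highest share that clusters 1, 2 and 4 could have without being listed, when a gene may be in more than 1 cluster. The triangles, drawn on this basis, lie inside the interval of cluster 3 for each term shown.

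For the terms listed alone, the shares in the other clusters are not known, and an upper limit could be set for all but cell and cell part (no cluster) and protein binding (not in cluster 2). The 32 terms had a median of 461.5 background genes, against 1095 for the other 93. Their median ratio was 4.22 against 3.20, and a smaller term needs a higher ratio to be listed. For 6 of the 32 terms the highest possible share of all 3 other clusters was under the share of cluster 3. These were localization, positive regulation of cell development, regulation of cell morphogenesis, regulation of cell morphogenesis involved in differentiation, transmission of nerve impulse and synapse assembly. With 1 gene fewer in cluster 3, 2 of the 6 remained, localization and positive regulation of cell development. For 9 other terms with a limit it was under the share of cluster 3 in no cluster. In 0 of the 32 did a limit fall under the interval of cluster 3. If no gene were in more than 1 cluster, an alternative added after the values were seen, these counts would be 8 in place of 6 and 1 in place of 0, with response to immobilization stress (2 background genes left) and neurofilament bundle assembly (0 left) as the additions to the first and the latter alone in the second. The condition does not hold for every gene, since Bdnf is named for clusters 1 and 3 and Pde4b for clusters 2 and 3 in the supplementary lists. The number of terms listed alone was 124 of 190 in cluster 1, 52 of 104 in cluster 2 and 40 of 89 in cluster 4, against 32 of 125 in cluster 3.

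Of the 125 terms, 47 were listed for 1 other cluster, 32 for 2 others and 14 for all 4. Over these 93 terms, cluster 3 had the highest share of the clusters listed in 21 and the lowest in 46. Clusters for which a term was not listed were left out of these 2 counts. By the limits above such a cluster can lie under cluster 3, so the lowest share of those listed need not be the lowest of all 4. The 14 were nervous system development, regulation of nervous system development, generation of neurons, neurogenesis, neuron differentiation, neuron development, neuron projection development, cell projection organization, system development, multicellular organismal development, single-organism developmental process, anatomical structure development, regulation of multicellular organismal process and cell periphery. Among the 14, cluster 3 had the highest share in 3, namely nervous system development, its regulation and generation of neurons, and the lowest in 1, neuron differentiation (14.6%, where cluster 1 had 20%).

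Pair by pair, cluster 3 shared 59 terms with cluster 1, which are 47.2% of its own terms and 31.1% of those of cluster 1. It shared 45 with cluster 2 (36.0% and 43.3%) and 49 with cluster 4 (39.2% and 55.1%). Its share was higher than that of cluster 1 in 10 of 59 terms, than that of cluster 2 in 39 of 45, and than that of cluster 4 in 20 of 49. Over these shared terms the median difference was -2.58, 2.44 and -0.51 percentage points in the same order. Clusters 1 and 4 are shorter lists (160 and 162 genes) than clusters 2 and 3 (214 and 212). A shorter list generally needs a higher share to list a term, which raises its shares among shared terms, here and within the groups above. What part of the tallies comes from this was not tested. Terms not listed for the other cluster are outside these tallies. Among them, the upper limit lay under the share of cluster 3 in 33 of 66 for cluster 1. It did so in 53 of 80 for cluster 2 and in 22 of 76 for cluster 4. The order of the remaining unlisted terms is not known, so the tallies do not rank the clusters over the whole list. The exact intervals overlapped in every shared term of the 3 pairs.

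**Figure D4:**
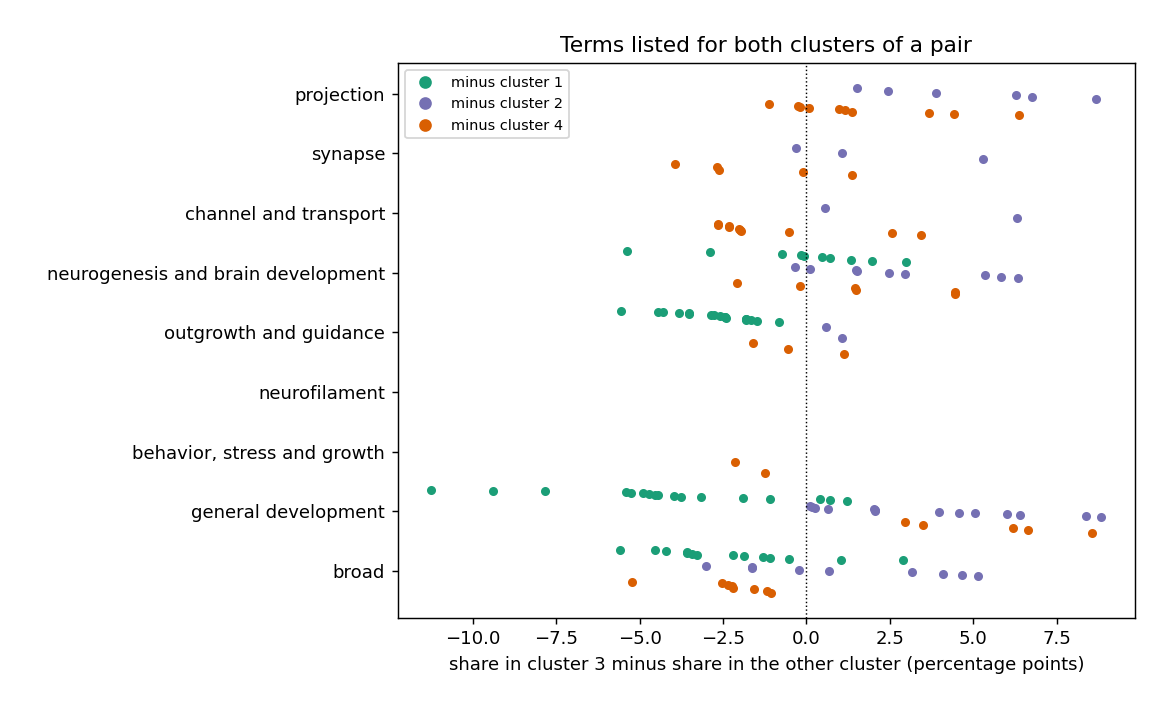
Difference of shares, cluster 3 minus another cluster in percentage points, for each term listed for both, by group of terms and with 1 color per other cluster. Outgrowth terms lie left of 0 against cluster 1 (green), projection terms right of 0 against cluster 2 (purple), and the neurofilament row is empty because neither term was shared.

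Cluster 3 was then set beside the full lists of raised genes, which hold 512 genes for Del/+ and 343 for Kansl1+/- as derived from their GO tables. The lists have genes and libraries in common with the cluster, so these values describe how its terms are spread over them. Of the 125 terms, 119 (95.2%) were listed for Del/+ and 85 (68.0%) for Kansl1+/-, which are 47.6% and 28.1% of the terms of those lists. The share was higher in cluster 3 than in the Del/+ list in 104 of the 119.

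Counts in cluster 3 ran from 37.8% to 80.0% of the Del/+ counts, with a median of 45.6%, where the sizes of the lists stand at 41.4%. Neurofilament was at the top with 4 genes against 5, followed by synapse assembly with 7 against 10 (70.0%). Synapse organization, with 10 against 15, and regulation of cell morphogenesis involved in differentiation, with 16 against 24, both stood at 66.7%. The lowest values were in channel and transport terms, whose median was 39.6%, such as transporter complex with 14 genes against 37. For projection terms the median was 47.2% and for neurogenesis 46.8%. The 26 terms listed for cluster 3 alone among the clusters and also for Del/+ had a median of 48.7%, against 45.1% for the other 93.

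**Figure D5:**
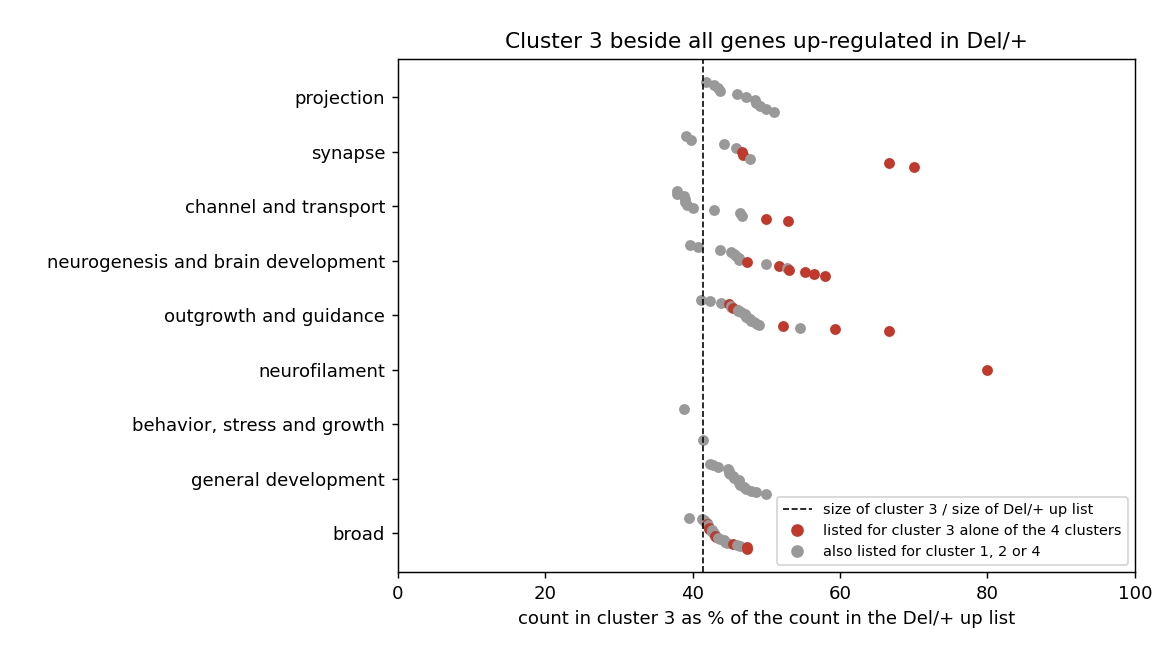
Gene count of cluster 3 as a percentage of the count in the list of all genes raised in Del/+, for the 119 terms listed for both, by group of terms, with the ratio of the list sizes (41.4%) as a dashed line. Most points lie right of the line, with neurofilament at 80.0% and synapse assembly at 70.0%.

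Against the genes raised in Kansl1+/-, the gap was widest for projection terms. Neuron projection held 38 of those genes (11.1%, 7.96% to 14.9%) and neuron part 42 (12.2%, 8.97% to 16.2%), and both intervals lay under those of cluster 3. These were the 2 terms of the 85 with intervals apart. As cluster 3 held 46 and 51 genes there, at least 8 of its neuron projection genes and 9 of its neuron part genes were not in the Kansl1+/- list. By the limits for unlisted terms the same held for at least 5 genes of axon, 5 of synapse, 2 of somatodendritic compartment and 1 of dendrite. Axon could hold at most 21 genes of the Kansl1+/- list (6.12%).

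The 6 terms listed neither for another cluster nor for a full list were neurofilament bundle assembly, response to immobilization stress, the insulin-like growth factor term, the GABA term, regulation of axonogenesis and regulation of growth. Their counts in cluster 3 were 3, 3, 4, 5, 9 and 21 genes. By the limits for unlisted terms, the Del/+ list could hold up to 3, 4, 5, 6, 13 and 36 genes in the same order. For the Kansl1+/- list the limits were 3, 4, 4, 5, 11 and 26. No limit was under the count of cluster 3, so all of these genes may be in both lists. The first 4 terms have at most 26 background genes.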

How the data were processed

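The authors mapped the libraries with BWA 0.6.2 (mm9 per the processing notes), compared promoters with DESeq2 and tested gene lists by hypergeometric tests. The 8 deposited tables give, for each listed term, gene counts of the list and background and an expected number, a score the authors computed. The authors' p-values, corrected p-values and fold enrichment were not used. The tables hold no coordinates or values per library, and depth is unknown. The listing threshold is not given in the sources used here.

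List sizes and background were derived from counts and expected numbers: 23468 was the only background up to 40000 that returned the expected number of all 1076 terms. On simulated data, all sizes were recovered in 5 of 5 runs. The simulation listed terms by count and size, so it does not test that assumption of the limits for unlisted terms. No tests were made. Terms were named by rule: those listed for cluster 3 alone, the 3 highest ratios in each group, those listed for all 4 clusters, and wider terms set against these. Further terms, such as organ development, were named outside this rule as examples of a comparison between clusters. Groups of terms were assigned by name. Members, lists and comparisons were chosen with earlier results of these data known. Alternatives were terms with at most 1000 background genes, 1 gene fewer (EASE count), merged duplicate terms, genes under biological regulation as denominator, Wilson intervals and, added after the values were seen, no gene in more than 1 cluster and limits with 1 gene fewer. Intervals were computed with scipy 1.17.1 under Python 3.11.15, with numpy 2.4.6 for the simulation and matplotlib 3.10.9 for the plots.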

Additional observations from a re-analysis of the deposited data

How the results depend on the processing

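With terms of at most 1000 background genes, 66 of the 125 terms remained, and the share of cluster 3 was higher in 4 terms than in cluster 1, in 12 than in cluster 2 and in 7 than in cluster 4, because fewer terms were compared. Of the 32 terms listed for cluster 3 alone, 6 were also unlisted for both full lists of raised genes. The number listed alone was 24 among terms of at most 1000 background genes and 32 with duplicate terms merged. The median ratio ran from 3.27 (1 gene fewer) to 4.32 (small terms). With Wilson intervals, 0 shared terms had intervals apart in the 3 pairs of clusters. Of the 125 shares, 0 left their interval with 1 gene fewer and 86 did when counts were divided by the 143 genes under biological regulation. Those 143 need not contain the genes counted, so these quotients are not shares, and 5 of them exceeded 100%, up to 115% for cell and cell part. That denominator could not be used for cluster 2, where the term was not listed. With no gene allowed in more than 1 cluster, 8 terms listed alone had limits under the share of cluster 3 in all 3 other clusters (6 otherwise), and 1 had a limit under its interval (0 otherwise), although Bdnf and Pde4b are named for 2 clusters each in the supplementary lists. With 1 gene fewer in cluster 3, 2 of these 6 terms remained. Of 4 limits in other clusters under the interval of cluster 3, 2 then remained, without the axon limits in clusters 1 and 2, and of 7 in the Kansl1+/- list 6 did, without neuronal cell body. No paired analysis was possible because the tables hold no values per sample, and for the same reason no replicate could be left out.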
